A study of Mus musculus with 6 samples.

Results

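Among the cells sorted as neoplastic from mouse lung tumours, a small set carried the genes of myeloid leukocytes, the blood-derived and tissue-resident cells that include macrophages. They were chosen by their RNA. A cell had to hold at least 500 genes and at most 20% mitochondrial UMIs (unique molecular identifiers, which tag each captured transcript once), and at least 4 of the 6 leukocyte genes Ptprc, Laptm5, Tyrobp, Fcer1g, Coro1a and Ctss had to be detected. Of the 12183 cells past both quality limits, 78 met this rule, which is 0.640% (exact binomial 95% interval 0.506 to 0.798%), and the remaining 12105 served as the other cells. The whole series held 16017 cells. The 6 gate genes, and with them every other gene set against the other cells, come from the values that chose the cells, so the differences below are descriptions without a test.

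The study asked what restoring the tumour suppressor Lkb1 (gene symbol Stk11) does to established lung tumours. All 6 mice carried KrasLSL-G12D, Lkb1XTR/XTR and Rosa26LSL-tdTomato, received Lenti-Cre into the trachea, bore tumours for 20 weeks and were then treated for 2 weeks. The 3 mice labelled Restored also carried FLPo-ERT2 and received tamoxifen, which lets the recombinase delete the gene trap in Lkb1. Of the 3 labelled NonRestored, 2 lacked FLPo-ERT2, with tamoxifen in 1 and vehicle in the other, and 1 carried FLPo-ERT2 and received vehicle. Lenti-Cre is not limited to epithelium by these alleles, since LSL cassettes are opened in any cell that receives Cre, and the promoter driving Cre is not given in the sources used here. The study initiated its lung tumours in young adult mice of both sexes. Cells bound by antibodies to CD45, CD31, F4/80 or Ter119, and dead cells, were excluded in the sort, and the study describes the sequenced cells as tdTomato positive, although the labels name the exclusion alone. The matrix held all libraries without a map of cells to mice, so restored and non-restored mice were not compared here, cell barcodes shared between libraries were not analysed here, and the 78 cells are cells of 1 pooled sample, not replicates. Intervals at 95% cover counting error only.

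Macrophages engulf particles and dead cells, sense them through Fc and C-type lectin receptors that signal by way of the adaptors Tyrobp (DAP12) and Fcer1g, and break them down in lysosomes. The lung holds resident alveolar macrophages, which live in the air space, clear surfactant lipid and depend on the cytokine GM-CSF and the nuclear receptor PPARgamma. Interstitial macrophages of the lung wall are known for complement C1q and MHC class II. The transcription factor PU.1 (Spi1) drives both lineages, and PU.1 and C/EBP factors bind near the start of many myeloid genes.

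Because the cells are defined by a few myeloid genes, the promoters of Ctss (a gate gene, encoding the lysosomal protease cathepsin S), Chil3 (a chitinase-like protein made by alveolar macrophages), Ccl6 (a chemokine) and Fabp1 (a fatty acid binding protein) are shown as examples from the genes that led the set. Each runs from 250 bases before the gene's start to 50 bases after it on the gene's strand (RefSeq, GRCm38.p6). Capitals mark a match to AGGAAGT, a PU.1-type motif (read as ACTTCCT on the opposite strand), in the first 3 and to TTGCNNAA, a C/EBP-type motif, in Fabp1.
Ctss: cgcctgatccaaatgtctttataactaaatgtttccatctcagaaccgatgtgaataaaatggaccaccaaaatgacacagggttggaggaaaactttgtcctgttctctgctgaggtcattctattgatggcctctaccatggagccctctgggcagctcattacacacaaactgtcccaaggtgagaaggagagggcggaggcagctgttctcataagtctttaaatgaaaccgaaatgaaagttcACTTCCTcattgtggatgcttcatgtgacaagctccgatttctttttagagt
Chil3: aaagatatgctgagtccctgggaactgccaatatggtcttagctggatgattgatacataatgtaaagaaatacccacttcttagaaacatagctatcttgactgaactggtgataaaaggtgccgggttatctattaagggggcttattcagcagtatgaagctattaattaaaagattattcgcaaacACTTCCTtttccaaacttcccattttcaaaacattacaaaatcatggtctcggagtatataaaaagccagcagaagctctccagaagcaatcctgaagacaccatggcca
Ccl6: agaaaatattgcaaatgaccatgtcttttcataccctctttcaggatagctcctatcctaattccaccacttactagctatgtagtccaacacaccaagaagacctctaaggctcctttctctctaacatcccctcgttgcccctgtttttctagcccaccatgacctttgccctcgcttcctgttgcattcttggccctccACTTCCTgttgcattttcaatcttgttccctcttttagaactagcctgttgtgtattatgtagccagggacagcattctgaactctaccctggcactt
Fabp1: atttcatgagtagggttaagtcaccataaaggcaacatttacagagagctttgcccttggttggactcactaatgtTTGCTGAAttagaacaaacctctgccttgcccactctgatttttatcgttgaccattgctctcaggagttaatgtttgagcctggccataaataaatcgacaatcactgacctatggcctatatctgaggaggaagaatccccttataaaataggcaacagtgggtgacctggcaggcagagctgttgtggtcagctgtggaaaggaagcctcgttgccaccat
They lie at chr3:95526536-95526835 (Ctss, plus strand), chr3:106167515-106167814 (Chil3, minus), chr11:83593038-83593337 (Ccl6, minus) and chr6:71199629-71199928 (Fabp1, plus). The PU.1-type letters began 60 bases before the start of Chil3 and 48 bases before that of Ccl6, and spanned the start of Ctss. Each of these promoters held 1 motif and not the other, so the matches did not overlap. Of the 20 genes with the largest ratio of gated over other cells, 15 had a promoter in the table, and 6 of those (40.0%) held AGGAAGT on either strand, namely Ctss, Chil3, Ccl6, Sirpb1c, Cd300c2 and Cd300lf. Shares here count genes, and a gene with several promoter windows counts if any of them matched. The letters occurred in 10.7% of all 27025 genes of the table. They also occurred in 15 of 49 (30.6%) genes with a promoter, at least 100 CPM in the gated cells and a level at least 1000-fold higher there. The 49 include the 15 leading genes. TTGCNNAA occurred in 2 of the 15 (13.3%), in 8 of the 49 (16.3%) and in 12.2% of all genes of the table. Among the 7151 genes with a promoter and at least 10 CPM in either set the shares were 11.1% for AGGAAGT and 10.1% for TTGCNNAA. A match describes the letters in this window and is not a bound site.

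The gate split the cells with little middle ground. Of the 12183 cells, 11833 had none of the 6 genes and 262 had 1, while 65 had all 6, 8 had 5 and 5 had 4. Just outside the rule, 6 cells had 2 genes and 4 had 3. The 4 cells with 3 genes held 4137 to 32376 UMIs, 3 to 5652 Sftpc UMIs and no Chil3 UMI. The 5 cells with 4 genes were shallow, at 963 to 1772 UMIs, and 4 of them had Chil3.

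**Figure D1:**
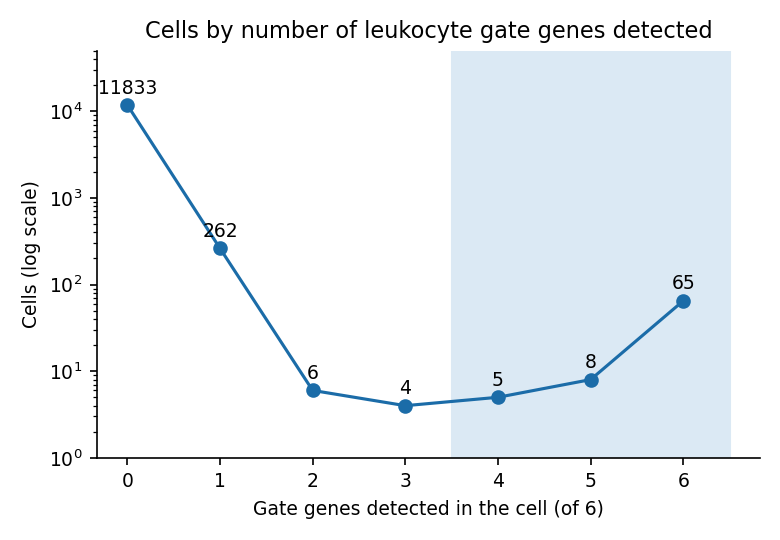
Number of cells (log axis) by how many of the 6 gate genes were detected in the cell, with the gate at 4 or more shaded. Cells pile up at 0 genes (11833) and at 6 genes (65), with 4 to 8 cells at each step from 2 to 5.

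The gated cells were not shallow as a set. Their median was 24046 UMIs (963 to 74839) and 4620 genes, against 19311 UMIs and 4166 genes in the other cells, and mitochondrial UMIs had a median of 3.23% against 3.70%. Levels are given as CPM, in which a gene's UMIs are summed over a set of cells and scaled to a total of 1000000 UMIs, and the totals were 1867237 UMIs in the gated and 255296285 in the other cells. Genes with at least 10 CPM in either set numbered 9029, and their median log2 ratio was -0.024. Of these, 1666 (18.5%) were at least 2-fold higher in the gated cells and 1998 (22.1%) at least 2-fold lower. A gene under 10 CPM in the other cells entered only through its level in the gated cells, which leaves little room for any call but higher, and 970 of 1195 such genes were called so. Of the 7834 genes with at least 10 CPM in the other cells, 696 (8.88%) were higher and 1998 (25.5%) lower. For each list below, members that entered through the gated cells alone are therefore described by their levels, and calls are counted over the members that reached 10 CPM in the other cells.

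The gate genes themselves were nearly absent elsewhere. Ctss stood at 3575 CPM in the gated cells (all 78 with a UMI) and 0.208 CPM in the other cells. Tyrobp, the DAP12 adaptor, stood at 2803 against 0.247 CPM, and Fcer1g, the Fc receptor gamma chain, at 2280 against 0.392 CPM. Laptm5, a lysosomal membrane protein of leukocytes, stood at 1487 against 0.153 CPM, Coro1a, an actin regulator, at 355 against 0.176 CPM, and Ptprc, which encodes CD45, at 340 against 0.114 CPM. Ptprc was detected in 74 gated cells, and Adgre1, which encodes F4/80, in 62 (102 against 0.0118 CPM). Cells bearing either protein were to be excluded in the sort. Pecam1 (CD31) gave 4 UMIs in the gated cells. RNA of a surface antigen does not measure the protein on the cell.

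Myeloid genes that the gate did not use were also high in the gated cells. Chil3 stood at 18009 CPM (17818 to 18203) against 0.924 CPM, and made up 1.80% of all UMIs of the gated cells. Ccl6 stood at 7859 against 0.509 CPM, Ear2, an eosinophil-type ribonuclease of alveolar macrophages, at 1842 against 0.172 CPM, and Cybb, the catalytic subunit of the phagocyte NADPH oxidase, at 987 against 0.0196 CPM. After each cell was thinned to 5000 UMIs, which kept 70 gated and 11014 other cells, Chil3 was found in 94.3% of gated and 0.427% of other cells. Without thinning the shares were 92.3% and 1.87%, with at most 2 Chil3 UMIs in any cell outside the gate. The 14 alveolar macrophage markers summed to 25510 against 22.1 CPM, and 13 of them reached 10 CPM in the gated cells alone. Ear1 and Ear2, and likewise Lyz1 and Lyz2, are near-identical copies between which the counting could split reads.

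The 20 leading genes by ratio, among those with at least 100 CPM, were Marco, Cybb, Siglecf, Clec4n, Cd300c2, Lilra5, Scimp, Osm, Chil3, Wfdc10, Ctss, Cd2, Ccl6, Sirpb1c, Cd33, Ccl3, Fabp1, Fpr1, Cd300lf and Tyrobp. Chil3 was 19482-fold higher (17141 to 22238) and Ccl6 15434-fold (12987 to 18487). Marco, a scavenger receptor for particles, had 1219 UMIs in 49 gated cells and 3 in the other cells, a ratio of 55556 with an interval from 18965 to 269770. Sirpb1c and Fpr1, a receptor for bacterial formyl peptides, had 320 and 263 UMIs and none in the other cells, which makes them at least 14584-fold and 11986-fold higher when the other cells are set at 3 counts. Sirpb1c and the Cd300 genes belong to families of similar genes. Cd2, an adhesion receptor best known from T cells, was detected in 66 of the 78 cells (330 CPM), while Cd3d, Cd3e and Cd3g, chains of the T cell receptor complex, had no UMI in any. The 10 genes leading the other way were Scgb1a1, Mgp, Tmem252, Cyr61, Cpm, C2cd4b, Gas6, Clu, Gem and Spry2. Scgb1a1, the club cell secretoglobin, stood at 1.07 against 661 CPM, and Clu, which encodes the secreted chaperone clusterin, at 45.5 against 1431 CPM.

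Markers of lymphoid and mast cells were few, while the interstitial macrophage, monocyte and neutrophil lists were each carried in part. None of the 9 mast cell and basophil markers and none of the 8 NK cell markers had a UMI, and a count of 0 here allows up to 1.61 CPM. Of 9 T cell markers 7 were at 0, the exceptions being Il7r (22 UMIs in 11 cells) and Trac (1 UMI), and of 8 B cell markers 5 were at 0. The 10 interstitial macrophage markers summed to 584 against 17.5 CPM. The C1q+ cells described below are defined by C1qa, C1qb or C1qc and held every UMI of these genes. They also held every UMI of Cx3cr1, which did not define them, and 71 of the 103 of Ms4a7. In the gated cells Folr2, Lyve1, Cd163 and F13a1 were at 0. Of the monocyte markers, Ms4a6c gave 116 UMIs in 33 cells and Ccr2 24 UMIs in 11 cells, Ly6c2 was lower (6.43 against 74.5 CPM) and Fn1 lay within 2-fold. Of the neutrophil markers, S100a8 gave 112 UMIs in 43 cells, the chemokine receptor Cxcr2 25 UMIs in 17 cells and the G-CSF receptor Csf3r 22 UMIs in 16 cells, while S100a9, Retnlg, Mmp9, Ly6g and Ngp were at 0. Of the 11 dendritic cell markers 7 had a UMI. Batf3 stood at 20.9 against 9.75 CPM and was found in 17 cells, while Flt3, Clec10a, Ccr7 and Fscn1 were at 0. Cd209a was found in 1 cell, with 6 UMIs, and Xcr1 in 1 cell, with 2. The 6 endothelial and 5 fibroblast markers at 0 included Cdh5 and Col1a2.

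The 78 cells were not of 1 kind. Clustering of these cells alone gave 3 groups of 46, 24 and 8 cells. For description they were also sorted, after their values were seen, into 64 Chil3+ cells (Chil3 detected, no C1q), 5 C1q+ cells (C1qa, C1qb or C1qc detected), 8 mixed cells, which are group 3 and carried high Sftpc, and 1 cell of 963 UMIs with neither, which held the 2 Xcr1 UMIs. Group 1 held 45 of the Chil3+ cells and the cell with neither, and group 2 held 19 Chil3+ cells and all 5 C1q+ cells. Group 1 is called alveolar macrophage-like, from Chil3, Ear2, Marco, Siglecf and the rest of that list, and its leading genes included Fstl1, Marco, Fabp4, Cxcr1, Krt79 and Fabp5. Chil3, Ear2 and Siglecf do not set it apart from the 19 Chil3+ cells of group 2, which carried Chil3 and Ear2 in every cell and Siglecf in 15. Marco and Krt79 stood higher in group 1, with Marco at 1059 against 145 CPM in the other gated cells. Group 2 as a whole was left unnamed, because its leading genes (Apoe, C1qb, C1qa, Asgr2, C1qc, Ccl17, H2-M2, Cd72 and Mgl2 among them) rested mostly on 5 of its 24 cells. Group 3 led with the epithelial genes Cldn18, Aqp5, Lamp3 and Nkx2-1 and was left unnamed as well. Under all 7 clustering settings tried, the mixed cells formed a group of their own and the C1q+ cells stayed in 1 group.

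**Figure D2:**
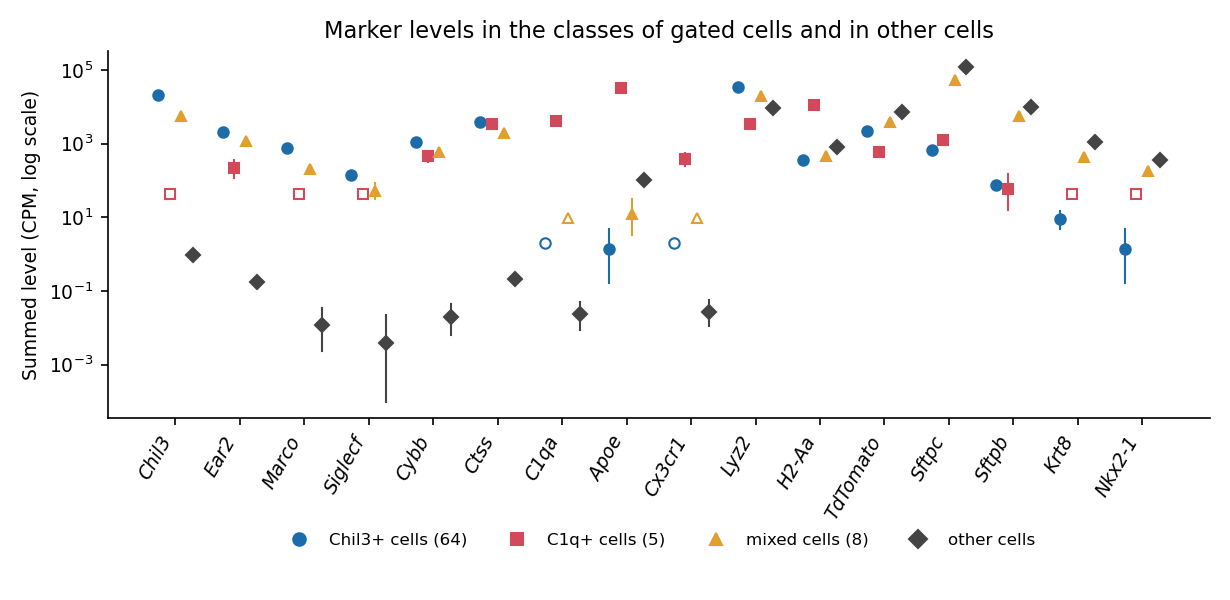
Summed level (CPM, log axis) of 16 genes in the 64 Chil3+, 5 C1q+, 8 mixed and 12105 other cells, with 95% Poisson bars; open symbols are genes at 0, drawn at 3 counts. Chil3 and C1qa are used to define the classes. Chil3 stands at 21532 CPM in Chil3+ cells and at 0 in C1q+ cells, while C1qa stands at 4231 CPM in C1q+ cells and at 0 in Chil3+ cells. Apoe, which did not define them, stands at 32430 CPM in C1q+ and 1.36 CPM in Chil3+ cells.

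Every Chil3+ cell carried Ccl6, Ear2, Clec4n and Lyz2, and also Ctss, Tyrobp and Fcer1g, which the gate used, and Chil3, which defines the class. Chil3 ranged from 3 to 4165 UMIs per cell with a median of 391.5, which is 2116 to 137160 CPM with a median of 15228. Ccl6 had a per-cell median of 8571 CPM (757 to 29193) and Ear2 of 2043 CPM (180 to 8381). By quartiles, Fcer1g, a gate gene, varied less in proportion (2098 to 3019 CPM) than the others. Quartiles were 9782 to 24374 CPM for Chil3, 4172 to 12074 CPM for Ccl6 and 1158 to 2906 CPM for Ear2. The full range of Fcer1g was 91.9 to 5418 CPM. Siglecf, the sialic acid receptor that marks alveolar macrophages, was detected in 54 of the 64 cells, Car4, a carbonic anhydrase, in 58 and Itgax, the integrin CD11c, in 59. Pparg, the factor alveolar macrophages depend on, was found in 51. None of these cells had a C1qa, C1qb or C1qc UMI, as the class required, and Cx3cr1 and Mgl2, which did not define it, were at 0 too.

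The C1q+ cells differed from the Chil3+ cells in more than the genes that separated them. None of the 5 had a Chil3 UMI, which makes Chil3 at least 502-fold lower when they are set at 3 counts. Their total depth was 3132, 11926, 13727, 13921 and 27261 UMIs. C1qa stood at 4231 CPM, with 14, 58, 69, 83 and 72 UMIs in the cells with 3132, 11926, 13727, 13921 and 27261 UMIs. Apoe, a lipoprotein ligand, gave 226, 576, 370 and 1097 UMIs in the first 4 of these and 0 in the deepest, and the class stood at 32430 CPM against 1.36 CPM in Chil3+ cells. The deepest cell instead held 132 Ccl17 UMIs, a chemokine of which the other C1q+ cells had none, with 391 H2-Aa, 39 Mgl2 and 30 Epcam UMIs, and all 6 Cd209a UMIs of the gated cells. Csf1r, the receptor for the growth factor M-CSF, had a per-cell median of 1090 against 58.4 CPM. Cx3cr1, a chemokine receptor of tissue macrophages, gave 26 UMIs spread over all 5 cells. Cd72, Mgl2, C3ar1, Aif1 and Abca1 gave 14 to 60 UMIs each in these cells and 0 or 1 in the 64 Chil3+ cells. Of the genes higher in Chil3+ cells, Slpi, Atp6v0d2, Car4, Ctsk, Marco and Siglecf had no UMI in the C1q+ cells, and Ccl6 stood at 129 against 8869 CPM. With 5 cells in the class, these values describe those cells.

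The 8 mixed cells carried both programs. They held 15374 to 74839 UMIs, a median of 39254 against 24384 in Chil3+ cells, and 6065 against 4646.5 genes. Their Chil3 UMIs ran from 122 to 522, while no cell outside the gate had more than 2, and their Sftpc UMIs from 204 to 8185. Genes of the alveolar type II (ATII) list, which mark the surfactant-making cells of the alveolus, took 2.21 to 14.5% of their UMIs, against 0.0429 to 1.47% in the other 70 gated cells. Nkx2-1, the lung lineage factor, had 1 to 25 UMIs in each, and all 8 had at least 3 of the 6 epithelial genes Epcam, Cdh1, Krt8, Krt18, Cldn18 and Cldn7. So did 13 of the Chil3+ cells. Of the 27 other ATII, alveolar type I (ATI) and epithelial list genes, 24 had a UMI in the mixed cells. Set per Sftpc UMI against the other cells, 8 of these had a ratio whose interval includes 1, among them Nkx2-1 (1.08, 0.823 to 1.40) and Krt8 (0.878, 0.739 to 1.04). For 10 it lay above 1, as for Napsa (2.01, 1.86 to 2.17) and Cdh1 (1.77, 1.31 to 2.34), and for 6 below, as for Cxcl15 (0.525, 0.475 to 0.579) and Hc (0.410, 0.247 to 0.641). Lyz2, which macrophages also make, was at 4.55 (4.43 to 4.66). Whether a mixed cell is 2 cells in 1 droplet was not tested, and no doublet caller was run. All values for the 78 cells include them.

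By function, the receptors that sense prey and signal through ITAM motifs were nearly absent from the other cells. The 18 members of the Fc receptor and ITAM list, of which Tyrobp and Fcer1g were gate genes, summed to 8392 against 22.9 CPM, and 17 reached 10 CPM in the gated cells alone. The IgG receptors Fcgr3 and Fcgr2b stood at 541 and 208 CPM against 0.274 and 0.0274 CPM. Clec4n (dectin-2), which binds fungal sugars, stood at 798 against 0.0313 CPM and was detected in all 78 cells. Trem2, a lipid receptor, stood at 319 against 1.13 CPM. Among the kinases behind these receptors Syk was 633-fold higher (154 against 0.243 CPM), while Lyn, the 1 member above 10 CPM in the other cells (11.2 CPM), was 14.6-fold higher.

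Of the chemokine ligands, 3 reached 10 CPM in the other cells. Cxcl1 (385 against 47.8 CPM) and Pf4 (37.0 against 12.4 CPM) were higher, and Cxcl16 (44.5 against 63.1 CPM) lay within 2-fold. Ccl3 and Ccl4, which attract monocytes and T cells, stood at 924 and 521 CPM against 0.0744 and 0.0548 CPM. Cxcl2, a neutrophil attractant, stood at 3286 against 8.30 CPM. Ccl5, Ccl7, Ccl8 and Ccl24 had no UMI in the gated cells. The 11 chemoattractant receptors summed to 678 against 1.33 CPM, none of them reached 10 CPM in the other cells, and they included the complement receptor C5ar1 (164 against 0.0196 CPM) and Ccr1 (140 against 0.0823 CPM). Of the 3 cytokines above 10 CPM in the other cells, Spp1 and Tgfb1 (299 against 40.0 CPM) were higher. Il1b, the inflammasome cytokine, stood at 1102 CPM (1054 to 1150) against 0.149 CPM, Il18 at 1042 against 4.73 CPM, Osm, an IL-6 family cytokine, at 326 against 0.0157 CPM and Spp1 (osteopontin) at 1154 against 35.7 CPM. Il6 stood at 19.8 against 12.7 CPM and Il12b had no UMI in either set. Nos2, the inducible nitric oxide synthase often used to grade macrophage activation, had no UMI in the gated cells.

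The 5 colony-stimulating factor receptors all entered through the gated cells, with Csf2rb and Csf2ra, the chains of the GM-CSF receptor, at 318 and 295 CPM against 1.18 and 7.09 CPM, and Csf1r at 98.0 against 0.732 CPM. Of the NADPH oxidase genes, Cyba (2124 against 215 CPM) and Ncf1 (118 against 11.0 CPM) reached 10 CPM in the other cells and both were higher. Of the integrins and adhesion genes, Cd44 was higher (768 against 127 CPM), and those near 0 in the other cells included Itgax at 279 against 0.0353 CPM and Itgb2 at 499 against 0.0744 CPM, while Itgam (CD11b) gave 8 UMIs in 6 cells. Icam1, an adhesion ligand, was lower, at 86.8 against 501 CPM. Of the co-stimulatory and inhibitory genes, 1, Lgals9, reached 10 CPM in the other cells and lay within 2-fold (33.7 against 36.0 CPM). Cd274 (PD-L1) stood at 85.7 against 0.443 CPM, and Havcr2 (TIM-3), with 107 UMIs in 54 cells and none elsewhere, was at least 4876-fold higher.

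The ratios of many lysosomal and lipid genes were smaller, as the other cells carried them too. Of 15 lysosomal genes with at least 10 CPM in the other cells 10 were higher and 2 lower, and 6 more entered through the gated cells. Ctsd, an aspartic protease, stood at 6948 against 249 CPM, Cd68 at 729 against 3.77 CPM, and Gpnmb, a glycoprotein of lysosomes, at 681 against 0.768 CPM. Ctsh, a protease used in processing surfactant protein, was lower, at 567 against 2213 CPM. Lyz2, the lysozyme of both macrophages and ATII cells, stood at 30474 against 9186 CPM. Of 8 lipid genes with at least 10 CPM in the other cells 3 were higher (Fabp5, Plin2 and Apoe) and 1, Npc2, was lower (1347 against 6426 CPM), while 10 entered through the gated cells. Pparg stood at 92.1 against 3.45 CPM, the cholesterol exporter Abcg1 at 505 against 0.885 CPM, the lipase Lpl at 549 against 4.37 CPM and the droplet coat gene Plin2 at 1560 against 188 CPM. Apoe, at 1218 against 102 CPM, owed 2269 of its 2275 UMIs to the C1q+ class, and in Chil3+ cells alone it was lower than in the other cells (1.36 CPM). Of the complement genes, C1qa, C1qb and C1qc had every UMI in those same 5 cells, which these genes define. Hc (complement C5), which the other cells held at 313 CPM, was lower at 12.9 CPM.

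Summed over all gated cells, most MHC class II genes lay within 2-fold of the other cells. Of 7 with at least 10 CPM in the other cells, 1 was higher (H2-DMa, 364 against 80.2 CPM) and 1 lower (Ciita, the class II transactivator, 7.50 against 18.2 CPM). The rest of the 7 lay within 2-fold. Over the 8 tested, 1 of which entered through the gated cells alone, the median log2 ratio was 0.42. The count of higher members depended on the weighting and on the cells included, with 4 under the mean of per-cell CPM and 2 without the mixed cells. The sum covered unequal cells. H2-Aa stood at 11234 CPM in C1q+ cells and at 357 CPM in Chil3+ cells, against 816 CPM in the other cells. Cd74, the class II chaperone, had a per-cell median of 39437 CPM in C1q+ cells and 163.8 CPM in Chil3+ cells. In Chil3+ cells alone 5 members were at least 2-fold lower than in the other cells. No share over all genes is given here for that class, so this count has no baseline beside it.

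Of 10 transcription factors with at least 10 CPM in the other cells 4 were higher and 1 lower, and 6 entered through the gated cells. Spi1 (PU.1) stood at 419 against 0.227 CPM and was found in 74 of 78 cells, Bhlhe41 stood at 105 against 2.30 CPM and Cebpb at 2339 against 291 CPM. Cebpa, which ATII cells also use, stood at 156 against 308 CPM and Cebpd at 92.1 against 236 CPM, the only member called lower. Of 10 interferon response genes, 9 stayed under 10 CPM in both sets, among them Isg15 at 9.10 against 8.50 CPM, and the 1 tested was at least 2-fold higher.

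**Figure D3:**
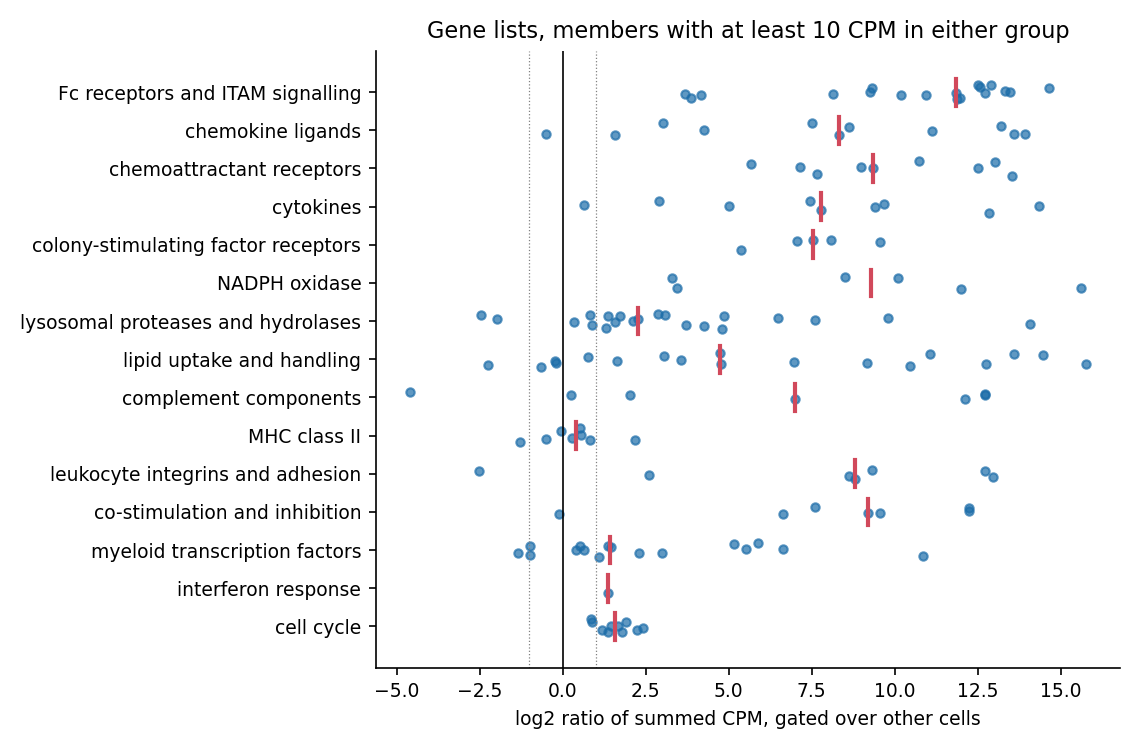
Log2 ratio of summed CPM, gated over other cells, for each member (points) of 15 gene lists with at least 10 CPM in either set, with red bars at list medians and dotted lines at 2-fold. Members under 10 CPM in the other cells are drawn because they were high in the gated cells. The Fc receptor and ITAM list has its median at 11.86, the lysosomal list at 2.27 and the MHC class II list at 0.42.

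Within the Chil3+ class, both the lipid and the inflammatory genes ranged from detected in nearly every cell to detected in part of them. Among lipid genes Plin2 was found in 62 of the 64 cells, Fabp5, a fatty acid binding protein, in 61, Abcg1 in 60 and Lpl in 58, but Cidec in 33, Nr1h3 in 28, Fabp4 in 26 and Abca1 in none. Among inflammatory genes Il18 was found in 62 and Il1rn, the interleukin 1 receptor antagonist, in 54. Il1b was found in 45 of the 64 cells, with up to 209 UMIs, and 10 cells held 71.8% of its UMIs. Ccl3 was found in 46 and Marco in 45, with up to 122 and 110 UMIs. Spp1 was found in 55 cells and reached 280 UMIs. H2-Aa was found in 28 cells, and 10 cells held 89.9% of its UMIs. Fstl1, a secreted glycoprotein that led group 1, rested on 5 cells, 1 of which had 149 UMIs.

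The 45 Chil3+ cells of group 1 and the 19 of group 2 had median depths of 23994 and 25188 UMIs. Chil3 (22060 against 20284 CPM) and Siglecf (140 against 132 CPM) stood close in both. Group 1 held more Marco (1060 against 123 CPM), Spp1 (1583 against 299 CPM), Fabp5 (1843 against 501 CPM), Fabp4 (156 against 31.9 CPM) and the fatty acid transporter Cd36 (445 against 162 CPM). Group 2 held more Ear2 (2858 against 1735 CPM), Cd74 (3756 against 788 CPM), H2-Aa (861 against 144 CPM), C4b (271 against 34.7 CPM), Tnf (207 against 79.1 CPM) and the early response gene Egr1 (517 against 197 CPM). C4b has a near-identical neighbour, so its reads may be split. These genes helped to form the groups, so the differences are descriptions, and they overlapped from cell to cell.

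**Figure D4:**
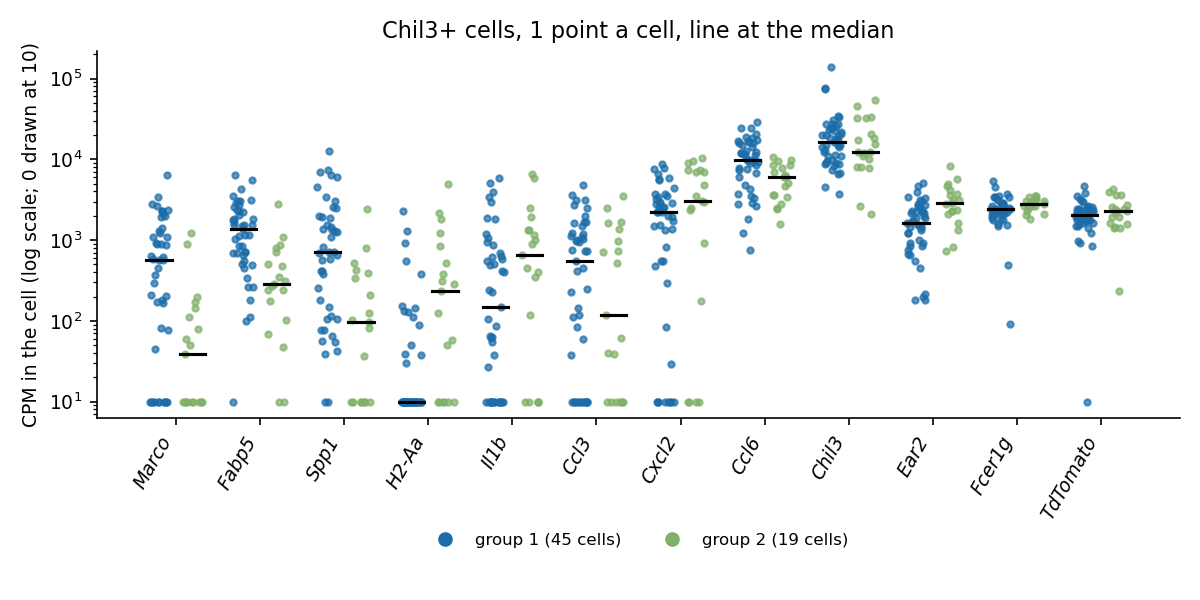
Level in each Chil3+ cell (CPM, log axis, 0 drawn at 10) of 12 genes in group 1 (45 cells) and group 2 (19 cells), with black lines at medians. Marco, Fabp5 and Spp1 lie higher in group 1 and H2-Aa in group 2, with overlap, and Chil3 is found in every cell because it defines the class.

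TdTomato, the tumour-cell reporter, was present in nearly all gated cells, out of proportion to the surfactant transcripts. Sftpc, surfactant protein C, was found in all 78 cells, with 4 to 34 UMIs in the 70 cells that were not mixed, against a level of 116910 CPM in the other cells. Genes were therefore also set per Sftpc UMI, as the ratio of Chil3+ over other cells. Of the 27 ATII, ATI and epithelial list genes beside Sftpc, 26 had a UMI in Chil3+ cells, and 16 of these had an interval that includes 1, 10 lay above it and 0 below. Several of the 16 had too few UMIs to say more, such as Spock2 with 1 (0.485 to 107), Nkx2-1 with 2 (0.0782 to 2.33) and Lamp3 with 3. Sftpa1 (1.04, 0.868 to 1.24), Sftpd (0.903, 0.614 to 1.28), Cxcl15 (1.08, 0.794 to 1.44), Krt8 (1.43, 0.759 to 2.44) and Krt18 (1.31, 0.696 to 2.23) were among the 16, and Sftpb lay slightly above 1 (1.32, 1.09 to 1.59). No profile of empty droplets was analysed here, so the part of free RNA in these UMIs was not tested.

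TdTomato stood higher per Sftpc UMI. The Chil3+ cells held 3270 TdTomato and 983 Sftpc UMIs, or 3.33 for each Sftpc UMI, against 0.0608 in the other cells, a ratio 54.8-fold higher (52.9 to 56.7). TdTomato UMIs exceeded Sftpc UMIs in 56 of the 64 Chil3+ cells, and in the 58 with at least 5000 UMIs they ran from 4 to 123. Its level was nonetheless lower than in the other cells, at 2216 against 7103 CPM. In the 5 C1q+ cells TdTomato gave 42 UMIs, 34 of them in 1 cell, and the mixed cells stood at 0.0732 for each Sftpc UMI, against 0.0608 in the other cells, although 2 of them held 175 TdTomato beside 204 Sftpc UMIs and 311 beside 811. TdTomato had no UMI in 3 of the 78 cells, 1 of them Chil3+, 1 C1q+ and 1 with neither. The origin of the TdTomato RNA in these cells was not tested.

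Of the 10 list genes above the Sftpc ratio in Chil3+ cells, Cav1 (caveolin) was 273-fold (184 to 391) and Pdpn (podoplanin), with 3 UMIs, 67.1-fold (13.8 to 197) above it. Cdh1 (E-cadherin) was 53.5-fold (42.7 to 66.2) and Epcam 32.6-fold (27.2 to 38.7) above it. Napsa was 5.01-fold above it (4.05 to 6.13), Abca3 16.6-fold and Hopx 14.6-fold. Cdh1 was found in 41 and Epcam in 30 of the 64 cells. After thinning, Epcam was found in 31.4% of gated and 79.2% of other cells. Their levels in Chil3+ cells were 56.9 and 88.8 CPM, against 187 and 478 CPM in the other cells.

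**Figure D5:**
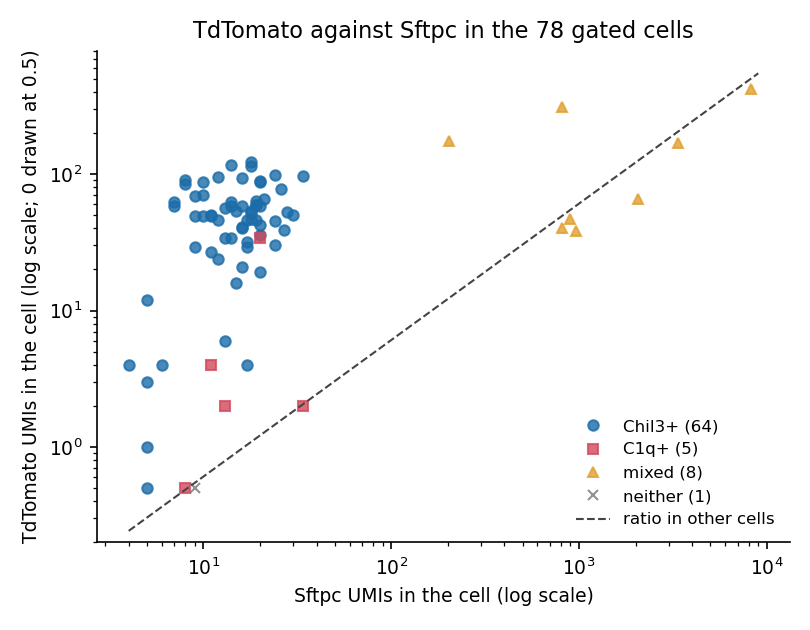
TdTomato against Sftpc UMIs in each of the 78 gated cells (both axes log, 0 TdTomato drawn at 0.5), by class, with the ratio of the other cells dashed. Most Chil3+ cells stand far above the line at 4 to 34 Sftpc UMIs, and the mixed cells, at 204 to 8185, lie near the line except 2.

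The trap reporter and its host gene were sparse. GFP, which the Lkb1XTR gene trap expresses, gave 7 UMIs in the gated cells, 5 of them in mixed cells and 2 in Chil3+ cells, against 6943 in the other cells. Per 100 TdTomato UMIs the Chil3+ cells held 0.0612 GFP UMIs and the other cells 0.383, a ratio of 0.160 (0.0193 to 0.577), while per Sftpc UMI the ratio was 8.75 (1.06 to 31.6), from the same 2 GFP UMIs. Stk11 gave 24 UMIs in 17 gated cells (12.9 against 21.9 CPM). Per 100 TdTomato UMIs the Chil3+ cells held 0.550 Stk11 UMIs and the other cells 0.309, a ratio of 1.78 (1.06 to 2.82), and per Sftpc UMI it was 97.7 (57.9 to 155). At this depth neither gene sorts single myeloid cells by Lkb1 state.

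Cell cycle transcripts were held by a few gated cells. Of the 6 cell cycle genes with at least 10 CPM in the other cells 4 were at least 2-fold higher in the gated cells, and 4 more entered through the gated cells. Mki67, which marks cycling cells, stood at 46.6 against 13.5 CPM. The sum rested on few cells, since 1 Chil3+ cell held 276 UMIs over the 10 genes, 1 mixed cell 82 and another Chil3+ cell 69. After thinning, 5 of 70 gated cells (7.14%, 2.36 to 15.9) had at least 3 such UMIs, against 190 of 11014 other cells (1.73%, 1.49 to 1.99), and unthinned the shares were 14.1% and 3.13%. Among Chil3+ cells 4 of 58 (6.90%, 1.91 to 16.7) did so after thinning.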

How the data were processed

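Droplet single-cell RNA sequencing (10x Chromium) was done on cells sorted from lung tumours of 6 mice. The deposited values were counts, whole UMI counts per gene and cell, which the authors made with Cell Ranger 3.0.2 on mm10, with GFP and TdTomato as added features, and had not normalized. The annotation release is not given in the sources used here. The matrix of 31055 features, 16017 cells and 266713311 UMIs was read as 1 pooled sample, so no test was run.

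Cells needed at least 500 genes (2081 had fewer) and at most 20% mitochondrial UMIs. UMIs were summed over cells and given as CPM with exact Poisson intervals, ratios with exact conditional binomial intervals and shares with Clopper-Pearson intervals, all at 95%. The ratio script was tested on simulated counts. A gene was called at 2-fold among genes with at least 10 CPM in either set, and the calls of most lists were counted, a choice made after seeing the data, over members with at least 10 CPM in the other cells. Where a count was 0, 3 counts over the set gave the bound and the floor. Shares were also taken with each cell thinned to 5000 UMIs, which left out shallower cells. The gated cells were log-normalized and clustered by the Leiden method (scanpy 1.11.5, igraph 0.11.9) on 1000 variable genes without mitochondrial, ribosomal and gate genes, 10 principal components, 10 neighbours and resolution 0.5. Scripts ran in Python 3.11.15 with scipy 1.17.1, numpy 2.4.6 and pandas 2.3.3, and matplotlib 3.10.9 drew the figures. No doublet caller was run.

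Named genes were the gate genes and myeloid markers, the 20 and 10 genes with the largest ratio each way among those with at least 100 CPM, the members of the lists, and the 10 leading genes of each group; those named between classes were chosen after their values were seen. The cells and gene lists were chosen with earlier results of these data known. Of 333 list genes 1 was not among the features, and some others enter the counts of their lists but are not reported here by name. Gene positions came from GENCODE M21, whose IDs matched 31011 features (99.9%), and promoters from RefSeq, GRCm38.p6. Alternatives changed the gate, the quality limits, the CPM minimum, the weighting of cells, the scaling, the thinning, the clustering and the cells included.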

Additional observations from a re-analysis of the deposited data

How the results depend on the processing

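No paired analysis was possible because the cells carry no mouse or replicate, and for the same reason no replicate could be left out. The share of gated cells was 0.469% without the gated cells that held 3 or more epithelial genes. With a minimum of 1 CPM, 2528 genes were at least 2-fold higher and 3222 lower, and with 100 CPM 496 and 355. The counts of list members here also hold those that passed the minimum through the gated cells alone. At 1 CPM the members higher were 2 for MHC class II and 2 for the interferon list, and those lower were 1 for the sort antigens, 1 for co-stimulation and 3 for the interferon list. At 100 CPM the members higher were 10 Fc receptor and ITAM genes, 6 chemokine ligands, 3 chemoattractant receptors, 2 colony-stimulating factor receptors, 3 complement genes, 6 transcription factors and 0 of the co-stimulation, interferon and cell cycle lists, and those lower were 1 of the transgenes and Lkb1, 1 lysosomal gene and 0 MHC class II genes, since fewer genes reach that minimum. With the mean of per-cell CPM, 4 MHC class II genes were higher, and 1 sort antigen and 2 transcription factors were lower. With at least 3 gate genes 0 MHC class II genes were lower, and with mitochondrial UMIs of at most 10% 2 transcription factors were lower. Leaving out the mixed cells or the cells with 3 or more epithelial genes made 2 MHC class II genes higher. In the Chil3+ cells alone, an alternative chosen after seeing the data as was leaving out the mixed cells, 1 chemokine ligand, 3 lipid genes, 5 MHC class II genes and 2 transcription factors were lower and 2 complement genes higher. No share over all genes is given for that class. In the Chil3+ cells the log2 ratio was -6.24 for Apoe, whose direction turned because the C1q+ cells were left out. Thinning gave shares of gated cells of 31.4% for Epcam, 10.0% for Krt8 and 14.3% for Ager, and resolution 1.0 gave 7 groups. The other 441 recomputed counts, shares and group numbers stayed within 1.5 times the reported count or within its interval. The levels of single genes moved more. Of 232 log2 ratios of gated over other cells, 110 left their interval with the mean of per-cell CPM, 99 without the cells with 3 or more epithelial genes, 94 in the Chil3+ cells alone and 78 without the mixed cells, and there 32, 33, 48 and 31 moved by more than 2-fold. Under the other settings 0 to 33 left their interval, and Apoe was the 1 gene called at 2-fold whose direction turned. With 1867237 UMIs in the gated cells, a gene at 0 may stand at up to 1.61 CPM there, and the 5 C1q+ cells held 3132 to 27261 UMIs each.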

Other observations

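Cells that met the gate but not the quality limits numbered 8 over 20% mitochondrial UMIs and 1 under 500 genes. They are not among the 78. Outside the gate, the 6 cells with 2 gate genes held 6696 to 45562 UMIs and 11 to 3805 Sftpc UMIs, and 1 of them had Chil3, with 2 UMIs.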
